A study of Mus musculus with 12 samples.

Results

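The genes described here are 6 myeloid transcription factors (Spi1, Cebpa, Cebpb, Cebpe, Gfi1 and Gfi1b) and 4 colony-stimulating factor receptor chains (Csf1r, Csf2rb, Csf2ra and Csf3r), read in common lymphoid progenitors (CLPs). They were found by symbol, all 10 of them, among the 47643 genes of the deposited expression table. The study asked what loss of the long noncoding RNA Firre, and its return from a transgene, does to gene expression in CLPs. CLPs (Lin- Sca1 lo cKit lo IL7Rα+) were sorted from the bone marrow of male adult mice and poly(A)+ RNA was sequenced, with 4 libraries in each of 3 groups. WT mice carried the intact Firre locus. ∆Firre mice (labelled KO) carried a germline deletion of the locus, made with CMV-Cre, which was afterwards bred out, and then crossed to C57BL/6J. Firre rescue mice carried the same deletion together with tg(Firre), a Firre cDNA behind a tet-responsive element and CMV minimal promoter, and with CAG-rtTA3, a transactivator driven in most cell types; they were fed doxycycline. WT and ∆Firre mice therefore differed from the rescue mice in both transgenes and, as far as the methods say, in doxycycline. The CAG-rtTA3 line was a B6N.FVB(Cg) strain kept by breeding to C57BL/6J females, so strain background may differ as well. No library from rescue mice without doxycycline was analysed here. Libraries are named by group and by the number in their label.

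The transcription factors and receptors form the core of a well-known circuit. PU.1, encoded by Spi1, and C/EBPα, encoded by Cebpa, open the granulocyte and monocyte programme in progenitors, and both act on the promoters of colony-stimulating factor receptors. Each receptor then transmits a growth signal, which for Csf2rb, Csf2ra and Csf3r runs through Janus kinases and STAT proteins. A CLP is a progenitor of lymphocytes that retains low expression of part of this circuit, so the level of these genes is often read as a measure of remaining myeloid priming.

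Read totals recovered from the table ran from 10990292 to 18174782 in WT, from 14370734 to 17597458 in ∆Firre and from 25781847 to 32573009 in Firre rescue, so the rescue libraries were the deepest. They did not hold more genes above 0, which numbered 15472 to 19877 in WT, 17910 to 19098 in ∆Firre and 15140 to 16835 in Firre rescue. The cause of this was not tested. Library numbers in the labels run together within the rescue group and apart from those of the other 8 libraries, and so library series and the rescue genotype cannot be told apart. The WT and ∆Firre libraries fall into 2 further ranges of library numbers, each with 2 libraries of either group: WT 8 and 11 with ∆Firre 8 and 11, and WT 6 and 10 with ∆Firre 9 and 12. Firre was at 25.2 to 31.6 TPM (transcript number scaled to library size and gene length) in WT, had 0 reads in each ∆Firre library, where 3 reads would give at most 0.0746 TPM, and was at 59.9 to 174 TPM in Firre rescue, in keeping with the labels. The CLP markers Il7r (353 to 525 TPM over the 12 libraries), Flt3 (506 to 709 TPM) and Dntt (4315 to 6725 TPM) were present throughout. Of the 10 CLP markers 4 were called in Firre rescue against ∆Firre: Ly6d (1.36, limma adjusted p = 6.03e-05) and Rag1 (0.73, 0.0077) were higher, and Kit (-0.49, 0.0137) and Il2rg (-0.38, 0.0507) lower, on the log2(TPM + 1) scale, beside 8.58% higher and 19.3% lower of all genes tested. The same 4 were called in the same directions against WT. Other cell types' markers are given further below.

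Promoters are shown for 4 genes: Cebpa and Csf3r, which were lower in Firre rescue, Csf2rb2, the near copy of Csf2rb, which was also lower, and Csf2ra, the partner chain of Csf2rb, which was not called. The RefSeq promoter table used here (GRCm38.p6, the mm10 assembly) held 7 promoters for 6 of the 10 genes, each of 300 bases, from 250 before to 50 after a transcription start. Spi1, Cebpe, Csf1r and Csf2rb were not matched. The windows are chr7:35119043-35119342 (plus strand) for Cebpa, chr4:126024409-126024708 (plus) for Csf3r, chr19:61228369-61228668 (minus) for Csf2ra and chr15:78305672-78305971 (minus) for Csf2rb2, each printed 5′ to 3′ on the gene's strand. Capitals mark GAGGAAG, a purine-rich core recognised by ETS factors such as PU.1, on either strand (CTTCCTC where it lies on the opposite one).
Cebpa: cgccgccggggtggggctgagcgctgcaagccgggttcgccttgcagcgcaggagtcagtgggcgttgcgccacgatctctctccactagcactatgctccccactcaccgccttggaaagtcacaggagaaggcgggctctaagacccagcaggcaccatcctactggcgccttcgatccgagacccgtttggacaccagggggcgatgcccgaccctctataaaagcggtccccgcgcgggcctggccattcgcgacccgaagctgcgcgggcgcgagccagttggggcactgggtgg
Csf3r: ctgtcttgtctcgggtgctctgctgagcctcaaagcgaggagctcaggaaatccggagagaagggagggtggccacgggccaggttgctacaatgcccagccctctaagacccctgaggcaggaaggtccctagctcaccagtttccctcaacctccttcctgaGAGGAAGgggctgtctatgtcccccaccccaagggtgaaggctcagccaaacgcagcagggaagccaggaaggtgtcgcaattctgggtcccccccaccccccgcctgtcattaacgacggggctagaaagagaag
Csf2ra: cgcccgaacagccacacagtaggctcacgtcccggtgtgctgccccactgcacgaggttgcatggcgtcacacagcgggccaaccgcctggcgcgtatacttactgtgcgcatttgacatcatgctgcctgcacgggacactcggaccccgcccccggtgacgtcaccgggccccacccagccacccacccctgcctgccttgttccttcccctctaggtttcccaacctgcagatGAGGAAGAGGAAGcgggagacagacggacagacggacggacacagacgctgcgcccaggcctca
Csf2rb2: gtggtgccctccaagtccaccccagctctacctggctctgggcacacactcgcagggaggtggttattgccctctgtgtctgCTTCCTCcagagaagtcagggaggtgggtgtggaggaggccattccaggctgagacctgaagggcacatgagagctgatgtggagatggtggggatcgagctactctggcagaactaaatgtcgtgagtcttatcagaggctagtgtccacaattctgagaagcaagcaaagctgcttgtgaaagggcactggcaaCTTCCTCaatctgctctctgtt
Of the 32851 promoters of this length in that table, 13.6% held GAGGAAG on either strand. It occurred 1 time in the Csf3r window, 2 times in the Csf2ra window, where the copies overlap by 1 base, and 2 times in the Csf2rb2 window, on the opposite strand. It was absent from the Cebpa, Cebpb, Gfi1 and Gfi1b windows. TTGCNNAA, a C/EBP core searched on both strands and held by 10.8% of promoters, occurred in 1 of the 2 Gfi1 windows only. AGATAA, read by erythroid zinc-finger factors and held by 11.2%, occurred in none of the 7, nor in that of Csf2rb2. GAGGAAG was thus present in some and absent from other windows both among the genes that were called lower and among those that were not.

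Spi1 encodes the ETS factor PU.1, needed for myeloid and early B cells, and lies at chr2:91082374-91115759 (GRCm38.p6, as are all positions here). It was at 67.4, 64.8, 41.4 and 53.0 TPM in WT 6, 8, 10 and 11. In ∆Firre 8, 9, 11 and 12 it was at 43.2, 38.0, 55.8 and 49.0 TPM, and in Firre rescue 1, 2, 3 and 4 at 67.5, 48.8, 58.0 and 67.9 TPM. The 3 groups overlapped. Firre rescue minus ∆Firre was 0.38 on the log2(TPM + 1) scale (SE 0.17, limma adjusted p = 0.144), which did not pass the threshold of 0.1 set on the adjusted p. The adjusted p was 0.0492 after median-ratio rescaling, 0.0679 after quantile normalization, 0.0649 with limma-voom on recovered reads, 0.0802 without immunoglobulin, mitochondrial and ribosomal protein genes and Firre, and 0.0835 without Firre rescue 2 (0.47), while with exon GC correction the difference was 0.103 (limma adjusted p = 0.712).

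Cebpa encodes C/EBPα, the factor that starts granulocyte and monocyte commitment (chr7:35119293-35121928). WT 6, 8, 10 and 11 were at 120.2, 53.0, 34.1 and 38.4 TPM, and ∆Firre 8, 9, 11 and 12 at 47.0, 30.3, 53.9 and 35.6 TPM. Firre rescue 1, 2, 3 and 4 were at 9.76, 12.01, 11.4 and 19.3 TPM. Every rescue library lay below every WT and every ∆Firre library, while WT and ∆Firre overlapped, with WT 6 above the other 11. Cebpa was lower in Firre rescue than in ∆Firre by 3.04-fold (log2 difference -1.60, SE 0.35, limma adjusted p = 0.00829) and lower than in WT by 4.002-fold (-2.001, SE 0.35, limma adjusted p = 0.0030). Without WT 6 the difference from WT was -1.62, and it was still called. Since a library averages all cells in the gate, fewer cells with the transcript and less of it per cell cannot be told apart, here and for each gene that follows.

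Cebpb encodes C/EBPβ, which drives granulocyte production under stress and acts in macrophages (chr2:167688915-167690432). It was a low gene, at 15.1, 5.29, 8.97 and 8.24 TPM in WT, 9.14, 4.10, 7.07 and 5.82 TPM in ∆Firre and 15.7, 10.4, 8.73 and 6.35 TPM in Firre rescue, in the same order of libraries. All 3 groups overlapped and no comparison was called. Firre rescue minus ∆Firre was 0.56 (SE 0.33, limma adjusted p = 0.2504). This value did not keep its direction: it was 0.84 after quantile normalization, which called it, and -0.51 with a correction for exon GC content, which is 67.2% in Cebpb against a median of 49.5% over the genes tested.

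Cebpe encodes C/EBPε, the factor of late granulocyte maturation and secondary granule genes (chr14:54710363-54712174). It had 10, 6, 15 and 14 reads in WT (1.38 to 2.46 TPM), 3, 12, 0 and 9 reads in ∆Firre (0 to 1.62 TPM) and 2, 9, 0 and 0 reads in Firre rescue (0 to 0.652 TPM). At 0 reads, 3 reads set the limit, which is 0.477 TPM in ∆Firre 11 and 0.229 and 0.257 TPM in Firre rescue 3 and 4. All rescue libraries lay below all WT libraries although they were sequenced more deeply. Its mean was under 1 TPM, so it was not among the 9 genes of the set that were tested. When all genes were tested without that filter, the difference from WT was -1.28 (SE 0.31, limma adjusted p = 0.0314) and those between ∆Firre and the other groups were not called. These limits and read numbers cover counting error only.

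Gfi1 encodes a zinc-finger repressor that holds back monocyte genes during granulocyte formation and also acts in lymphoid cells (chr5:107716655-107725805). It was at 22.03, 29.3, 27.0 and 32.1 TPM in WT, 24.4, 25.9, 26.5 and 25.2 TPM in ∆Firre and 22.1, 22.6, 25.2 and 19.6 TPM in Firre rescue. WT 6 was the lowest WT library for Gfi1 and the highest for Cebpa. The groups overlapped, and Firre rescue minus WT was -0.28 (95% interval -0.57 to 0.0023, limma adjusted p = 0.162). With the exon GC correction Gfi1 was called lower in Firre rescue against both groups (-0.60 against ∆Firre and -0.53 against WT). With median-ratio rescaling added it was still called against ∆Firre (-0.48) and not against WT (-0.35, limma adjusted p = 0.169). Without that correction, leaving out WT 6 or Firre rescue 3 made the difference from WT a call (-0.38 and -0.34).

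Gfi1b encodes the sister repressor that is needed for red cells and platelets (chr2:28609450-28621982). WT ran from 20.8 to 24.5 TPM. ∆Firre 8 was at 11.3 TPM and the other ∆Firre libraries at 18.8 to 23.8 TPM, and Firre rescue ran from 15.2 to 28.0 TPM. No comparison was called, with differences between -0.31 and 0.17 on the log2 scale (SE 0.22). The spread between the libraries of a group was wider in ∆Firre (SD 5.35 TPM) and Firre rescue (5.28 TPM) than in WT (1.597 TPM), a description that was not tested.

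**Figure D1:**
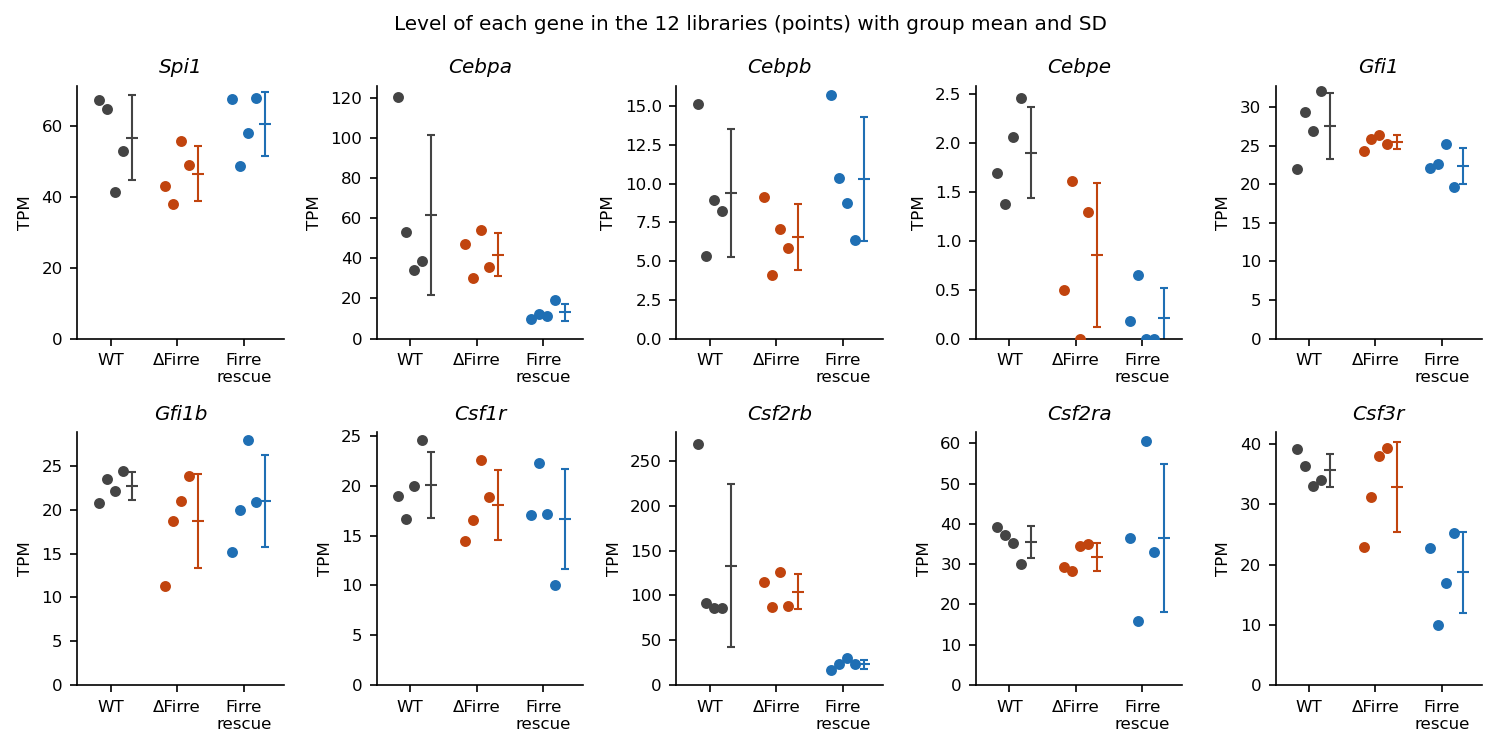
Level (TPM, linear axes from 0) of the 10 genes in each library of WT, ∆Firre and Firre rescue; points are libraries, in label order within a group, and bars give mean and SD (n = 4). Csf2rb and Cebpa lie lower in all 4 Firre rescue libraries than in any other library, and the single high WT point of both is WT 6.

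Csf2rb encodes the β chain that the receptors for GM-CSF, IL-3 and IL-5 share and through which they signal (chr15:78325800-78351001). It was the highest of the 10 genes in WT and in ∆Firre. WT 6 was at 269 TPM and WT 8, 10 and 11 at 91.7, 85.4 and 86.2 TPM. ∆Firre 8, 9, 11 and 12 were at 114.9, 87.5, 126 and 88.6 TPM. Firre rescue 1, 2, 3 and 4 were at 17.0, 23.1, 29.7 and 23.0 TPM, under the lowest library of either other group. Csf2rb was 4.37-fold lower in Firre rescue than in ∆Firre (log2 difference -2.13, SE 0.32, limma adjusted p = 0.00107) and 4.93-fold lower than in WT (-2.30, SE 0.32, limma adjusted p = 0.000913). Leaving out WT 6, the difference from WT was -1.90 and was still called.

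Csf2rb2, which encodes a β chain used by the mouse IL-3 receptor alone, is the near copy and neighbour of Csf2rb (chr15:78282507-78305721). It was at 119.7, 35.6, 35.5 and 43.1 TPM in WT, 51.0, 44.7, 55.1 and 40.4 TPM in ∆Firre and 10.7, 10.5, 24.4 and 7.57 TPM in Firre rescue. Again the rescue libraries lay below all others, with differences of -1.89 from ∆Firre (SE 0.38, limma adjusted p = 0.0061) and -1.98 from WT (SE 0.38, limma adjusted p = 0.0053). How the counting step treated reads that fit both copies is not given in the sources used here, so the split between the copies is uncertain.

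Csf2ra encodes the α chain that makes the shared β chain into a GM-CSF receptor (chr19:61217191-61228461). It was at 39.2, 37.2, 35.4 and 30.1 TPM in WT, 29.3, 28.2, 34.6 and 35.1 TPM in ∆Firre and 36.6, 15.9, 60.5 and 33.0 TPM in Firre rescue. Both the lowest and the highest library of all 12 were rescue libraries. Firre rescue minus ∆Firre was 0.06 with a 95% interval from -0.57 to 0.68 (limma adjusted p = 0.912), and Firre rescue minus WT was -0.10, from -0.72 to 0.53 (limma adjusted p = 0.849). These intervals do not reach the difference found for Csf2rb. With exon GC correction the value against ∆Firre turned to -0.60 and was not called (limma adjusted p = 0.153).

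Csf3r encodes the receptor for G-CSF, the main growth factor of neutrophils (chr4:126023441-126044975). It was at 39.2, 36.3, 33.1 and 34.0 TPM in WT, 23.0, 31.2, 38.0 and 39.4 TPM in ∆Firre and 22.7, 9.89, 17.0 and 25.2 TPM in Firre rescue. All rescue libraries were below all WT libraries, while Firre rescue 4 was above ∆Firre 8. Csf3r was lower in Firre rescue by 1.78-fold against ∆Firre (-0.83, SE 0.25, limma adjusted p = 0.0359) and by 1.96-fold against WT (-0.97, SE 0.25, limma adjusted p = 0.0207).

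Csf1r encodes the receptor for M-CSF and IL-34, which monocytes and macrophages depend on (chr18:61105572-61131139). It ran from 16.7 to 24.6 TPM in WT, from 14.4 to 22.6 TPM in ∆Firre and from 10.1 to 22.3 TPM in Firre rescue. The groups overlapped and no comparison was called, the widest being Firre rescue minus WT at -0.29 (95% interval -0.77 to 0.19, limma adjusted p = 0.397).

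The comparison of ∆Firre with WT asked what the deletion alone does. None of the 9 tested genes of the set was called, and at an unadjusted p under 0.05 there were also 0 of 9, against 767 of all 14479 genes tested. Over all genes 0.0207% were called, which is 3 genes: Firre, Scarna3a and 1 gene model with no symbol. Limma-voom on recovered reads called 0 genes (366 at an unadjusted p under 0.05) and so missed Firre itself, and with library number range as a term 1 gene and none of the set were called. All 9 differences were negative, with a median of -0.17 against -0.06 over all genes, but Gfi1 and Csf2ra turned positive with the exon GC correction, Csf2rb turned positive, to 0.23, without WT 6, and Csf3r, to 0.016, without ∆Firre 8. The 95% intervals of the main fit show what could have been missed, from -0.39 to 0.19 for Gfi1 and from -0.64 to 0.10 for Spi1. For Csf2rb they reach from -0.86 to 0.52 and for Cebpa from -1.14 to 0.35. Without WT 6, Cebpa was at -0.016 (SE 0.26) and Csf2rb at 0.23 (SE 0.18), so the intervals of both depend on that library.

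The comparisons of Firre rescue with ∆Firre and with WT asked what the transgene and its induction go with. In the first, 3 of the 9 tested genes were lower (Csf2rb, Cebpa and Csf3r) and 0 higher, where 19.3% of all genes tested were called lower and 8.58% higher. In the second the same 3 genes were lower and 0 higher, where 19.4% were called lower and 4.82% higher. Such a share of 9 genes is close to what so many calls give over all genes, so the count says nothing about the set, and the results are those of the single genes. Both comparisons use the same rescue libraries and are not independent. The median difference of the 9 genes was -0.15 against ∆Firre and -0.28 against WT, beside -0.16 and -0.21 over all genes tested, and the differences given above include that general shift. Of all genes called, 30.7% were higher in Firre rescue than in ∆Firre and 19.9% than in WT, and after median-ratio rescaling these shares were 50.2% and 50.6%. Csf2rb, Cebpa, Csf3r and Csf2rb2 were called lower under each of the 27 alternative settings run for these comparisons, with differences from ∆Firre between -2.26 and -1.96, -2.34 and -1.36, -0.99 and -0.57, and -2.21 and -1.60 in that order.

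**Figure D2:**
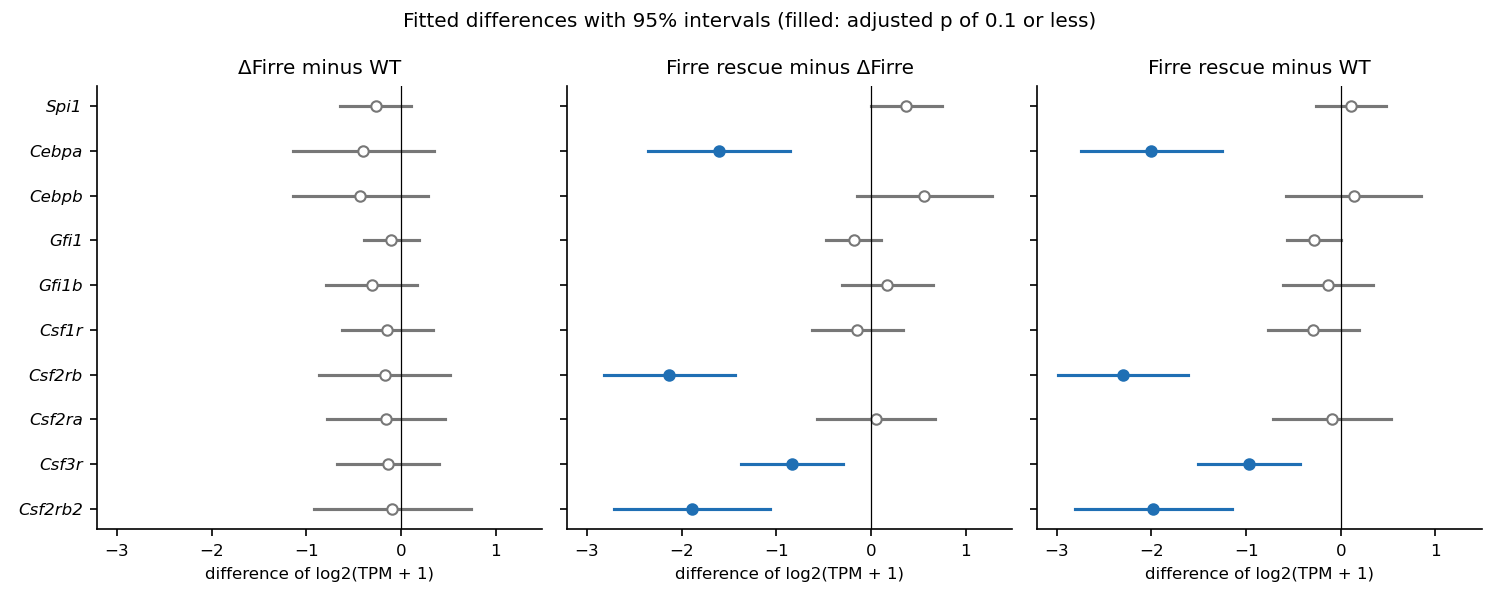
Fitted differences on the log2(TPM + 1) scale with 95% intervals for the 9 tested genes and Csf2rb2, in the 3 comparisons; filled blue points have a limma adjusted p of 0.1 or less. Nothing is filled for ∆Firre minus WT, and Cebpa, Csf2rb, Csf3r and Csf2rb2 are filled, all to the left of 0, in both comparisons of Firre rescue.

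The order of the levels, which TPM allows since it is per length, changed at its top. In WT the mean levels fell from Csf2rb (133 ± 90.7 TPM, SD, n = 4) through Cebpa (61.4 ± 40.0) and Spi1 (56.6 ± 11.9) to Csf3r, Csf2ra, Gfi1, Gfi1b, Csf1r, Cebpb and Cebpe (1.90 ± 0.467). The place of Cebpa above Spi1 rested on WT 6, the single WT library in which Cebpa was the higher of the pair: without WT 6 Csf2rb was at 87.8, Spi1 at 53.1 and Cebpa at 41.8 TPM. The libraries of neighbours overlapped except between Spi1 and Csf3r, Csf1r and Cebpb, and Cebpb and Cebpe. In ∆Firre the order was Csf2rb (104 ± 19.2), Spi1 (46.5 ± 7.67) and Cebpa (41.7 ± 10.7), followed by the same 7 genes in the same order. There Csf2rb stood clear of Spi1, Csf2ra of Gfi1, Gfi1 of Gfi1b, Csf1r of Cebpb and Cebpb of Cebpe, while the other neighbours overlapped. In Firre rescue Spi1 was first (60.6 ± 9.08), then Csf2ra (36.5 ± 18.4), Csf2rb (23.2 ± 5.17), Gfi1, Gfi1b, Csf3r, Csf1r, Cebpa (13.1 ± 4.22), Cebpb and Cebpe, and the only neighbours without overlap were Cebpb and Cebpe.

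Ratios of 2 genes within a library do not depend on how libraries are scaled against each other. They can still depend on the exon GC correction, which was not applied to them. With that correction Firre rescue minus ∆Firre was -2.26 for Csf2rb and -0.60 for Csf2ra, and 0.10 for Spi1 and -2.34 for Cebpa. The ratio of Spi1 to Cebpa was 0.560, 1.22, 1.21 and 1.38 in WT, 0.918, 1.26, 1.04 and 1.38 in ∆Firre and 6.92, 4.06, 5.07 and 3.52 in Firre rescue. The ratio of the shared β chain to the GM-CSF α chain, Csf2rb to Csf2ra, was 6.86, 2.47, 2.41 and 2.87 in WT, 3.92, 3.10, 3.64 and 2.53 in ∆Firre and 0.465, 1.45, 0.490 and 0.695 in Firre rescue. Neither ratio overlapped between Firre rescue and the other groups. The β chain transcript exceeded the α chain transcript in every WT and ∆Firre library and in 1 of 4 rescue libraries. On the log2 scale the Spi1 to Cebpa ratio differed by 2.06 from ∆Firre and by 2.19 from WT, and the Csf2rb to Csf2ra ratio by -2.23 and -2.25. The genes of these ratios were chosen after their values were seen, each pairing a gene that lay apart in Firre rescue with one that did not, so the separation follows from the choice and no test is given. The ratio of Csf2rb to Csf2rb2 was 2.31 ± 0.245 (SD, n = 4) in WT, while ∆Firre had 2.17 ± 0.148 and the rescue libraries 2.01 ± 0.793, with overlap between all groups. The Gfi1 to Gfi1b ratio was 1.21 ± 0.108, 1.46 ± 0.480 and 1.11 ± 0.254 in the 3 groups, which also overlapped.

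**Figure D3:**
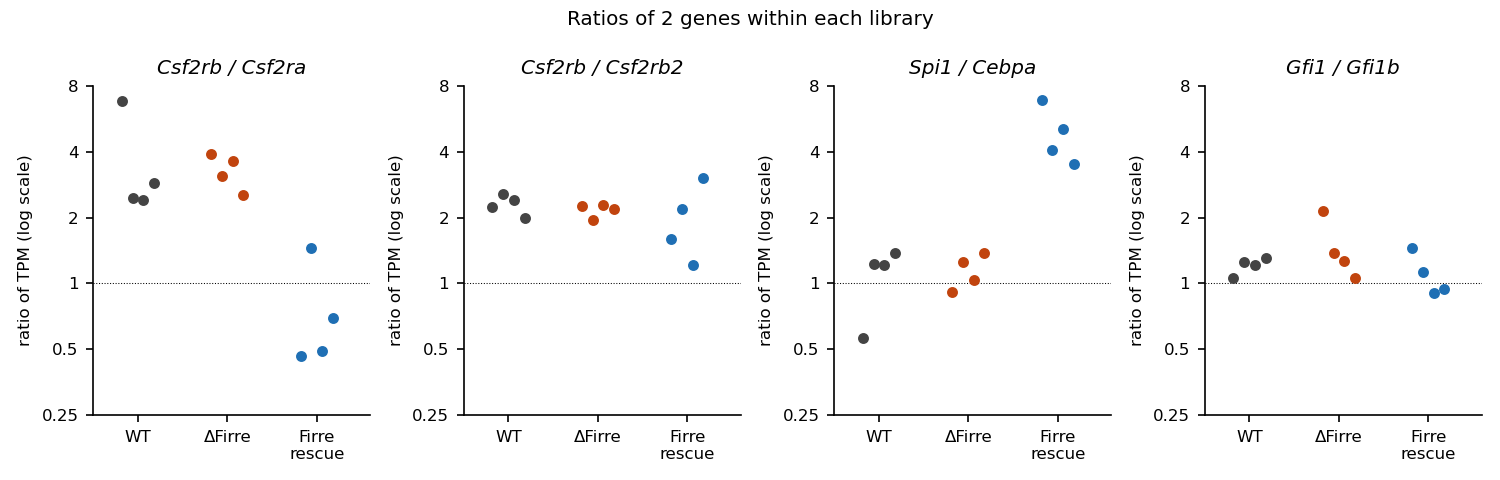
Ratio of TPM of 2 genes within each library (log scale), by group; each point is a library and the dotted line marks equal levels. For Spi1 / Cebpa the Firre rescue libraries lie between 3.52 and 6.92, above all others, and for Csf2rb / Csf2ra between 0.465 and 1.45, under all others.

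Around the receptors, the list of 9 ligands and partner chains held 5 genes that could be tested, and 3 of them were lower in Firre rescue against both groups and 0 higher, with 0 of 5 called in ∆Firre against WT, beside 19.3% and 19.4% of all genes tested that were lower. Csf1, the M-CSF ligand of Csf1r, was at 24.5 to 92.5 TPM in WT, 23.9 to 40.8 TPM in ∆Firre and 0.725 to 3.92 TPM in Firre rescue (limma log2 difference -3.45 from ∆Firre, adjusted p = 0.000286). Csf2rb2 is described above. Il5ra, the α chain of the IL-5 receptor, was at 4.26 TPM or less in every library (-0.92 from ∆Firre, limma adjusted p = 0.0971, and -1.13 from WT, 0.0541), and lost its call against ∆Firre in 16 and against WT in 6 of 26 alternative settings. Il3ra, the IL-3 α chain, was not called. Csf2, the GM-CSF ligand, was low and not called, Csf3 and Il3 were listed at 0 in all 12 libraries, and Il34 and Il5 were listed at 0 in 10 and 8 of the 12 libraries and reached at most 1.05 and 1.63 TPM in the others.

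Behind the receptors, 16 genes of JAK-STAT signalling were tested. In Firre rescue against ∆Firre 2 were higher and 4 lower, against WT 0 higher and 5 lower, and in ∆Firre against WT 0 were called. Over all genes tested 19.3% were lower and 8.58% higher against ∆Firre, and 19.4% and 4.82% against WT, so these counts are close to what so many calls give. Jak2, the kinase bound to the β chain, was at 92.8 to 192 TPM in WT, 103 to 126 TPM in ∆Firre and 42.4 to 65.3 TPM in Firre rescue, whose libraries lay below all others (limma log2 difference -1.23 from ∆Firre, adjusted p = 0.00206, and -1.29 from WT, 0.00193). Gab2, an adaptor that couples the β chain to further signalling, was also lower (-0.83 from ∆Firre, limma adjusted p = 0.015, and -0.98 from WT, 0.00793). The kinase Lyn was lower by little (-0.26, limma adjusted p = 0.0745, and -0.36, 0.0218), and lost its call in 12 and 5 of the 27 alternative settings, with median-ratio rescaling, quantile normalization, limma-voom and GC correction among both. Its value against ∆Firre turned to 0.04 with exon GC correction and median-ratio rescaling together. Inpp5d, which encodes the phosphatase SHIP1 (0.40, limma adjusted p = 0.074), and Stat5b (0.31, 0.0925) were higher against ∆Firre, and were not called with exon GC correction, where Inpp5d kept its size (0.36, limma adjusted p = 0.112) and Stat5b was at 0.13 (0.477). With median-ratio rescaling added to that correction both were called, but over the 27 alternative settings Inpp5d lost its call in 11 and Stat5b in 14. The median of the 16 genes was -0.08 against ∆Firre and -0.19 against WT, above the median of all genes in both.

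Among 16 other myeloid transcription factors, 3 were higher and 6 lower in Firre rescue against ∆Firre, 2 higher and 7 lower against WT, and 0 were called in ∆Firre against WT, beside the 19.3% lower and 8.58% higher, and 19.4% lower and 4.82% higher, of all genes tested. The median of the 16 factors was -0.46 against ∆Firre and -0.48 against WT. Gata2, a factor of stem cells, basophils and mast cells, was at 20.8 to 178 TPM in WT, 28.9 to 48.6 TPM in ∆Firre and at most 0.565 TPM in Firre rescue. Gata1 (-0.96 from ∆Firre, limma adjusted p = 0.0813, and -1.49 from WT, 0.0161) and Id2, an inhibitor of E proteins (-1.03, limma adjusted p = 0.00621, and -0.96, 0.0100), were lower as well. Klf4, a monocyte factor, was higher (1.38, limma adjusted p = 0.0367, and 1.13, 0.0827), as was Zfpm1, the GATA cofactor FOG1 (1.64, limma adjusted p = 0.00305, and 1.04, 0.030), though neither was called with exon GC correction. There Klf4 was at 1.17 from ∆Firre (limma adjusted p = 0.105) and 1.01 from WT (0.142), close to its size without the correction, and Zfpm1 at 0.58 (0.209) and 0.31 (0.493). With median-ratio rescaling added, both were called against ∆Firre and not against WT. Over the 27 alternative settings Klf4 lost its call in 2 against ∆Firre and in 13 against WT, and Zfpm1 in 1 and 2. Irf8, a monocyte and dendritic cell factor, was called higher against ∆Firre (0.36, limma adjusted p = 0.0911), where its call against WT was missing (0.12, limma adjusted p = 0.584), and it lost the call in 13 of the alternative settings, as did Gata1 against ∆Firre. Of 5 corepressors that Gfi1 and Gfi1b recruit, only Ehmt2, a histone methyltransferase, was called, higher against ∆Firre (0.81, limma adjusted p = 0.0125). With exon GC correction it was at 0.24 and not called (limma adjusted p = 0.352), and with rescaling added it was called (0.36, limma adjusted p = 0.0678).

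**Figure D4:**
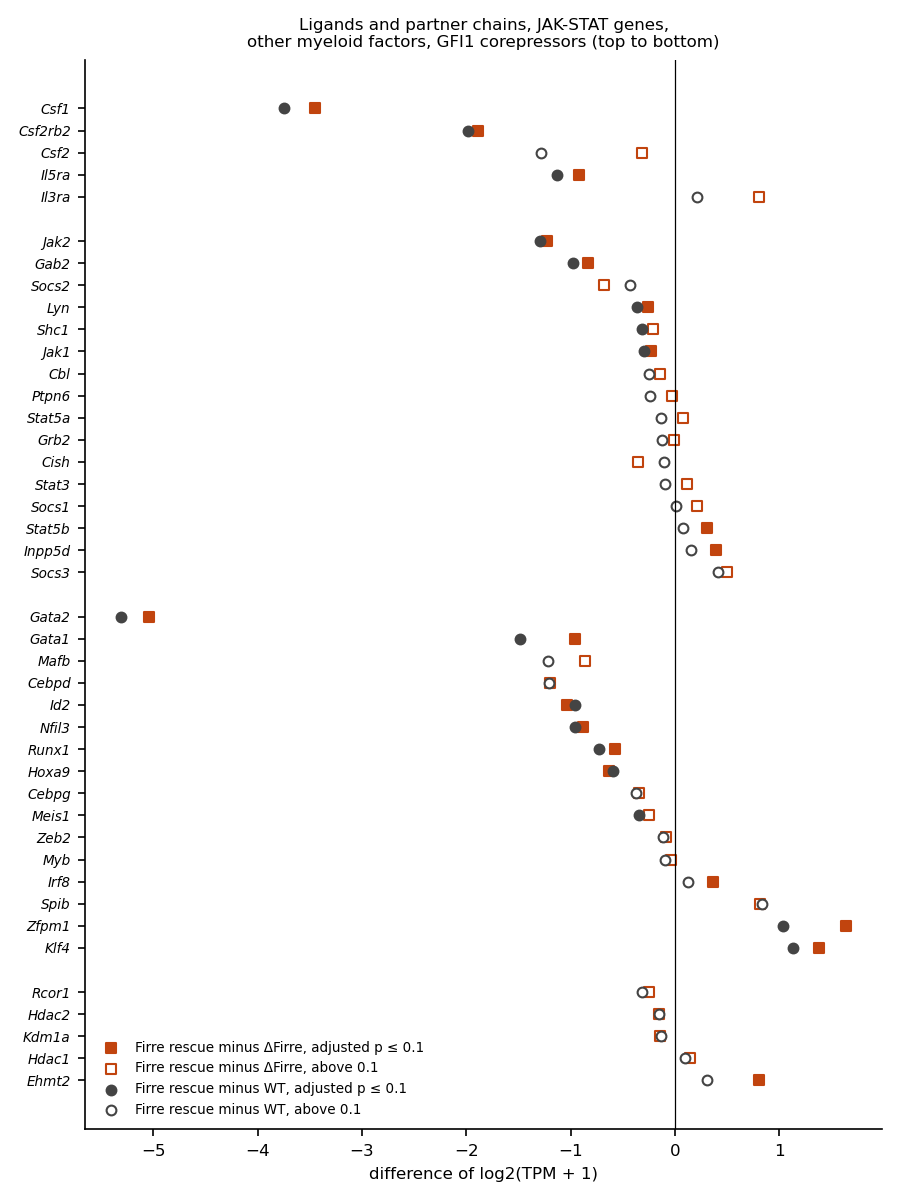
Differences on the log2(TPM + 1) scale of Firre rescue from ∆Firre (squares) and from WT (circles) for the tested genes of 4 lists, in blocks from top to bottom; filled symbols have a limma adjusted p of 0.1 or less. Gata2 and Csf1 lie farthest to the left, and Jak2 and Gab2 are the lowest of the JAK-STAT block.

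Markers of another cell type were lower in Firre rescue, as Csf2rb, Csf2rb2 and Cebpa were. Basophils and mast cells carry the β chain receptors, and of 11 of their markers 9 were tested and all 9, Gata2 among them, were lower in Firre rescue against both groups (0 called in ∆Firre against WT), beside 19.3% and 19.4% of all genes tested. Their summed level was 1084 to 9264 TPM in WT, 2972 to 4391 TPM in ∆Firre and 64.5 to 142 TPM in Firre rescue. WT 6, the highest library for Csf2rb, Csf2rb2 and Cebpa, was also the highest for the sum. Among WT libraries WT 6 also had the highest eosinophil (120 TPM), erythroid and megakaryocyte (151 TPM) and type 2 innate lymphoid cell (114 TPM) sums. Otherwise the order within groups differed. WT 8 had a lower sum than WT 11 (1084 against 2837 TPM), with Csf2rb and Cebpa higher and Csf2rb2 lower. In ∆Firre the sum was highest in ∆Firre 8, and Csf2rb, Csf2rb2 and Cebpa in ∆Firre 11. The basophil protease Prss34 was at 448 to 4026 TPM in WT, 1372 to 1939 TPM in ∆Firre and at most 23.8 TPM in Firre rescue. Ms4a2 and Fcer1a, chains of the high-affinity IgE receptor, were at 74.0 TPM or more and 112 TPM or more in every WT and ∆Firre library, and in Firre rescue were listed at 0 except in Firre rescue 2 (0.128 and 6.11 TPM). The mast cell proteases Cma1 and Tpsb2 were at or near 0 in all libraries, at most 0.603 TPM. The part of these markers in the lower Csf2rb, Csf2rb2 and Cebpa of Firre rescue was not tested.

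**Figure D5:**
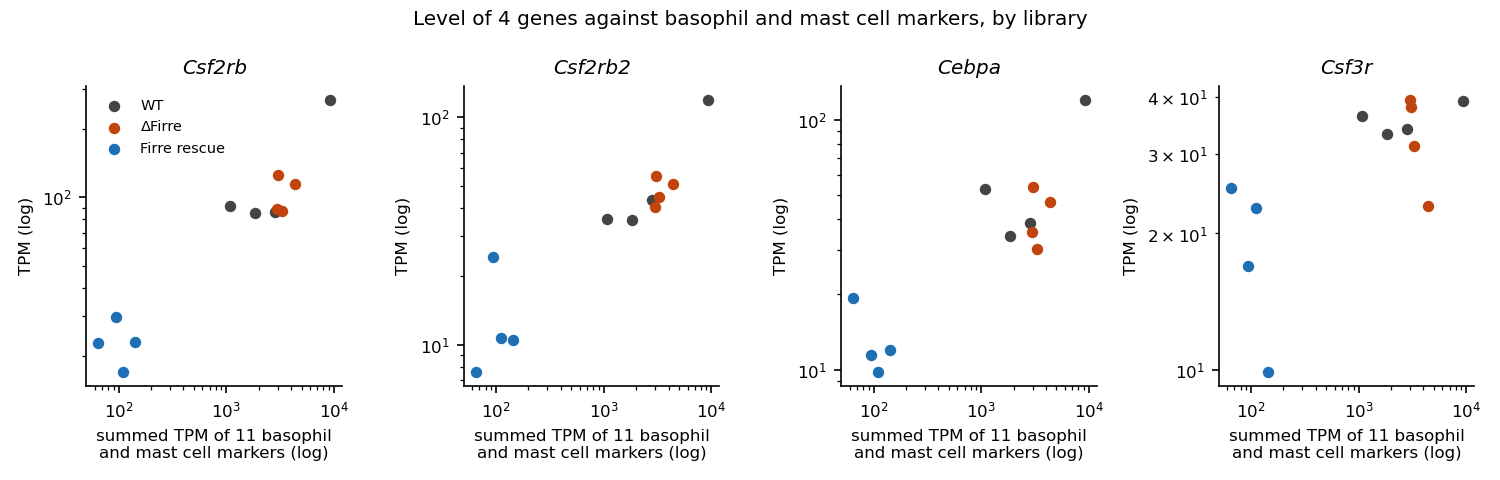
Level (TPM, log axis) of Csf2rb, Csf2rb2, Cebpa and Csf3r in each library against the summed TPM of 11 basophil and mast cell markers (log axis), by group. The Firre rescue libraries sit at 64.5 to 142 TPM on the horizontal axis and the other 8 at 1084 TPM or more, and WT 6 at 9264 TPM is the highest for 3 of the 4 genes.

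Counts in the marker lists that follow stand beside 19.3% lower and 8.58% higher of all genes tested against ∆Firre and 19.4% and 4.82% against WT, and several are near those shares. Neutrophil markers varied within groups, from 692 to 1617 TPM in sum in WT, 408 to 1951 TPM in ∆Firre and 204 to 1688 TPM in Firre rescue, with 7 of 16 tested genes lower against ∆Firre and 8 against WT, and 0 higher. Monocyte and macrophage markers summed to 390 to 491 TPM, 350 to 550 TPM and 219 to 376 TPM in the 3 groups, with 4 of 9 tested genes lower against each group and 0 higher. B cell markers moved the other way, with 7 of 8 higher and 1 lower in Firre rescue against each group and sums of 215 to 420 TPM, 282 to 373 TPM and 835 to 1340 TPM. Of 8 erythroid and megakaryocyte markers 2 were lower against ∆Firre, and 3 lower and 1 higher against WT, in which Gfi1b was not called. Of 7 eosinophil markers 1 was lower against each group and 0 higher. Against ∆Firre, 3 of 4 tested T and natural killer cell markers, 4 of 5 of type 2 innate lymphoid cells, 3 of 5 of antibody-secreting cells and 2 of 5 of plasmacytoid dendritic cells were lower, with 0, 0, 2 and 1 higher, and of the CLP markers the 4 given above. The part of these lists in the differences of Csf3r and of the other genes was not tested.

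The genes most alike in pattern were sought over the 12 libraries by Pearson's r of log2(TPM + 1), which for the called genes largely follows the difference between the rescue and the other libraries, so r after removal of group means is given second, as a description. Csf2rb was most like Cyp4f18 (0.99 and 0.94), Klf7 (0.98 and 0.90) and a gene model without a symbol. Cebpa was most like Gab2 (0.98 and 0.94), Heatr5a (0.97 and 0.93) and Slc41a3 (0.97 and 0.90). Between Csf2rb and Cebpa themselves the values were 0.96 and 0.86. WT 6, which stood high for both (269 TPM for Csf2rb and 120 TPM for Cebpa), is part of each r here. Values of r without WT 6 were not computed, so how far they rest on that library is not known. Csf3r was most like Eps15 (0.97 and 0.93), Cx3cr1 (0.94 and 0.87) and Slc36a1 (0.93 and 0.82). With Csf2rb, Csf3r gave 0.72 and -0.00047, though so few libraries cannot show that the 2 are unrelated within the groups. Spi1 was most like Mfsd13a (0.95 and 0.93), Nr1h2 and Gtpbp6, and Csf2ra most like Thap1 (0.95 and 0.96), Mri1 and Map4k4. Gfi1 was most like Ppfibp2 (0.93 and 0.94), Acox3 and Il5ra, Gfi1b most like Slc31a2 (0.87 and 0.87), Cyth4 and Stk24, and Csf1r most like a gene model without a symbol, Shpk (0.84 and 0.82) and snoZ39.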

How the data were processed

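CLPs from male mice were profiled by poly(A)+ RNA-seq (CATS kit). The authors trimmed reads with cutadapt, mapped them to mm10 with TopHat2 2.1.1 and Gencode annotation, counted them with featureCounts and deposited TPM values per gene, 12 columns in all (WT, KO and Rescue, 4 each), grouped by the titles in the labels. Each value was analysed as log2(TPM + 1). Genes with a mean of at least 1 TPM (14479 of 47643) were fitted with limma 3.58.1 (R 4.3.3, trend) over the 3 groups, with Benjamini-Hochberg adjustment over all genes tested, with 0.1 as the highest adjusted p of a call, the level in the study's methods. Fold changes are on the log2(TPM + 1) scale and understate the change of low genes. The fit was also run on simulated counts, with the same spread for all genes and no outlying library or GC effect. Its outcome is not given here and does not cover those conditions. P-values measure the spread between these libraries.

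TPM steps gave whole reads for 99.5% of genes tested (tolerance 0.05 of a read, 0.1 for genes of many reads), from which depth was taken. Symbols came from a Gencode release by gene ID, with 2678 updated through RefSeq synonyms, and 3 list genes had no match. One list gene is not reported here and was left out of its list. Lists and members were chosen with earlier results of these data known. Named genes are the members, of each pathway list the called genes with the 3 largest rises and falls, and the 3 genes most alike each member above 10 TPM. Marker lists are given as counts and sums, and single genes only for basophil and mast cell markers and for 7 of the CLP markers. Ratios were chosen after values were seen. Alternatives were other pseudocounts, filters, scalings, exon GC correction (exons of another assembly joined by gene, 90.4% of genes tested), fits and left-out libraries.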

Additional observations from a re-analysis of the deposited data

Results flagged for a closer look

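Within each group of 4 libraries, 1 library was looked for that stands apart from the other 3 on the log2(TPM + 1) scale by a gap above Dixon's 95% limit, taken as a share of the group's range. Over the members, Csf2rb2, Firre and the named genes, 8 of 86 sets held such a library, where chance alone gives about 1 in 20 sets, or 4.3. Csf2rb was at 8.08 in WT 6 against 6.43 to 6.54 in the other WT libraries, and Csf2rb2 was at 6.92 there against 5.19 to 5.46, so both β chain genes stood apart in the library that also has the highest basophil and mast cell markers. Without WT 6, Csf2rb in ∆Firre minus WT was 0.23 in place of -0.17, and was not called either way. Among other genes, Gab2 was at 3.95 in Firre rescue 4 against 3.52 to 3.58, Irf8 at 8.13 in WT 10 against 7.79 to 7.81, and Ehmt2 at 6.48 in WT 8 against 6.26 to 6.27. Prss34 was at 10.9 in ∆Firre 8 against 10.4 to 10.5. In Firre rescue 2, Ms4a2 was at 0.17 and Fcer1a at 2.83 where the other rescue libraries were listed at 0. With 3 libraries at 0 any value above 0 stands apart, so these 2 of the 8 sets follow from the zeros.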

How the results depend on the processing

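Csf2rb, Cebpa, Csf3r and Csf2rb2 kept direction and call in both rescue comparisons under all 27 settings. Over all genes, ∆Firre against WT gave 3 calls, 6 without the filter on low values, 1 without immunoglobulin, mitochondrial and ribosomal protein genes and Firre, 1 with only the 2 groups compared, 1 with library number range as a term, 0 with limma-voom (366 at an unadjusted p under 0.05, and Firre itself missed), and 1 to 5 when libraries were left out; 0 members were called in each. The numbers 8 and 11 occur in both WT and ∆Firre labels, but deviations of same-numbered libraries did not go together (correlations -0.03 and -0.04), so they were not taken as pairs, although these 4 libraries also share a range of library numbers: a replicate block gave 3 calls, and the block with GC correction 1. Firre rescue against ∆Firre gave 4043 calls, 1990 with GC correction, 2358 with GC correction and median-ratio rescaling, and 2682 at an adjusted p of 0.05. Firre rescue against WT gave 3512, 2263 with only the 2 groups compared and 2005 with GC correction and median-ratio rescaling. The share of calls that were higher was 53.6% and 50% after quantile normalization in these comparisons. Quantile normalization called 5 members against ∆Firre in place of 3. Directions turned as follows, none of them a call in the turned direction. In ∆Firre against WT, Gfi1 was 0.063 with GC correction, 0.067 with the block added and 0.13 with median-ratio rescaling added; Csf2ra was 0.081, 0.079 and 0.15 in the same order, and Csf2rb2 was 0.023 in the last. With libraries left out, Csf2rb ran from -0.32 to 0.23, Csf3r from -0.24 to 0.016 and Csf2rb2 from -0.26 to 0.32. Against ∆Firre, with GC correction and then with rescaling added, Cebpb was -0.51 and -0.39, Gfi1b -0.20 and -0.090 and Csf2ra -0.60 and -0.48; Csf1r was 0.010 after quantile normalization, and Lyn 0.036 with GC correction and rescaling. With libraries left out, Gfi1b ran from -0.036 to 0.31, Csf1r from -0.30 to 0.061 and Csf2ra from -0.23 to 0.39. Against WT, Spi1 was -0.052 and Cebpb -0.61 with GC correction (-0.41 with rescaling added). Gfi1b was 0.046, 0.060 and 0.0035 after median-ratio rescaling, quantile normalization and limma-voom, and Csf2ra 0.086, 0.087 and 0.033, and 0.00013 without the immunoglobulin and related genes. With libraries left out, Spi1 ran from -0.032 to 0.21, Cebpb from -0.078 to 0.37, Gfi1b from -0.28 to 0.00201 and Csf2ra from -0.38 to 0.24. The cause was not tested in any of these. Reads limit Cebpe most, with at most 15 in a library.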
